A study of Capra hircus with 9 samples.

Results

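The miR-130 family of the goat mammary gland, which also holds miR-301 and miR-454, is described here across late lactation, the dry period and late gestation. Its members were found by name, as the miRNAs of the count table whose names begin with chi-miR-130a, chi-miR-130b, chi-miR-301a, chi-miR-301b or chi-miR-454, with all arms kept. The rule found 9 of the 1359 miRNAs listed, and it used no measured value. The 9 were chi-miR-130a-3p and -5p, chi-miR-130b-3p and -5p, chi-miR-301a-3p and -5p, chi-miR-454-3p and -5p, and chi-miR-301b, which the table lists without an arm. Small RNA was sequenced from whole mammary tissue of Laoshan dairy goats in late lactation (LL, 240 days postpartum), in the dry period (DP, 300 days postpartum) and in late gestation (LG, 140 days after mating). Each stage had 3 goats and 1 library per goat. All goats were of this breed, with a mean age of 4 years and in the third parity. No treatment or genotype is given for any group, and the stage is the difference between groups that the sources name. Because tissue was sequenced in bulk, fewer cells of a type and less miRNA per cell cannot be told apart.

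A miRNA lowers the output of mRNAs that pair with its seed, a short run of bases near its 5′ end. The 3p miRNAs of this family carry the same seed and can therefore bind many of the same mRNAs, whereas the 5p miRNAs come from the opposite side of each hairpin and have seeds of their own. Members of the family are known as repressors of PPARG, the nuclear receptor that drives fat cell formation and, in the ruminant mammary gland, genes of milk fat synthesis. No mRNA was analysed here, so that these data do not bear on PPARG itself.

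In the goat genome (ARS1.2), the MIR130A hairpin lies on chromosome 15 from 2397498 to 2397586 and overlaps no annotated gene. MIR454 (chromosome 19, 9742520 to 9742633) and MIR301A (chromosome 19, 9752169 to 9752253) both lie within SKA2, a protein-coding gene of the spindle and kinetochore, 9535 bases apart. MIR130B (384147 to 384228) and MIR301B (384453 to 384549) are placed on a sequence without a chromosome, and are 224 bases apart if it is the same one. MIR130B and MIR301B are called neighbours on that condition.

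The libraries held 13672653 to 34378995 counts (median 22430144), and CPM gives the counts as a rate of this total. For a library with 0 counts of a miRNA, the upper limit set by 3 counts was 0.0873 CPM in the deepest library and 0.219 CPM in the shallowest. Levels below are CPM scaled by edgeR's TMM method, given as mean ± SD (n = 3 goats) where not given per library. The family held a small share of each library, on average 0.00247% of the counts in LL, 0.0104% in DP and 0.00692% in LG. The 3 leading members were chi-miR-130a-3p with a mean of 21.9 CPM over all 9 libraries, chi-miR-130b-5p with 20.9 CPM and chi-miR-454-3p with 11.7 CPM. They ranked 238th, 252nd and 293rd by mean level among the 1359 miRNAs, and held 35.0%, 33.4% and 18.7% of the family's level. The other 6 members lay lower, at 3.05 CPM for chi-miR-301a-5p, 2.27 CPM for chi-miR-130b-3p, 1.42 CPM for chi-miR-130a-5p, 0.758 CPM for chi-miR-301a-3p, 0.374 CPM for chi-miR-301b and 0.240 CPM for chi-miR-454-5p.

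Summed over its 9 members, the family lay at 31.0 ± 4.96 CPM in LL, 99.2 ± 16.3 CPM in DP and 57.4 ± 4.93 CPM in LG. The ranges of the stages did not overlap, at 26.1 to 36.0 CPM in LL, 53.9 to 63.1 CPM in LG and 86.8 to 118 CPM in DP. The sum hides different members, since its makeup also moved. Chi-miR-130a-3p held 38.0% of the family's level in LL and 25.0% in LG, whereas chi-miR-130b-5p held 31.6% in LL and 41.8% in LG.

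**Figure D1:**
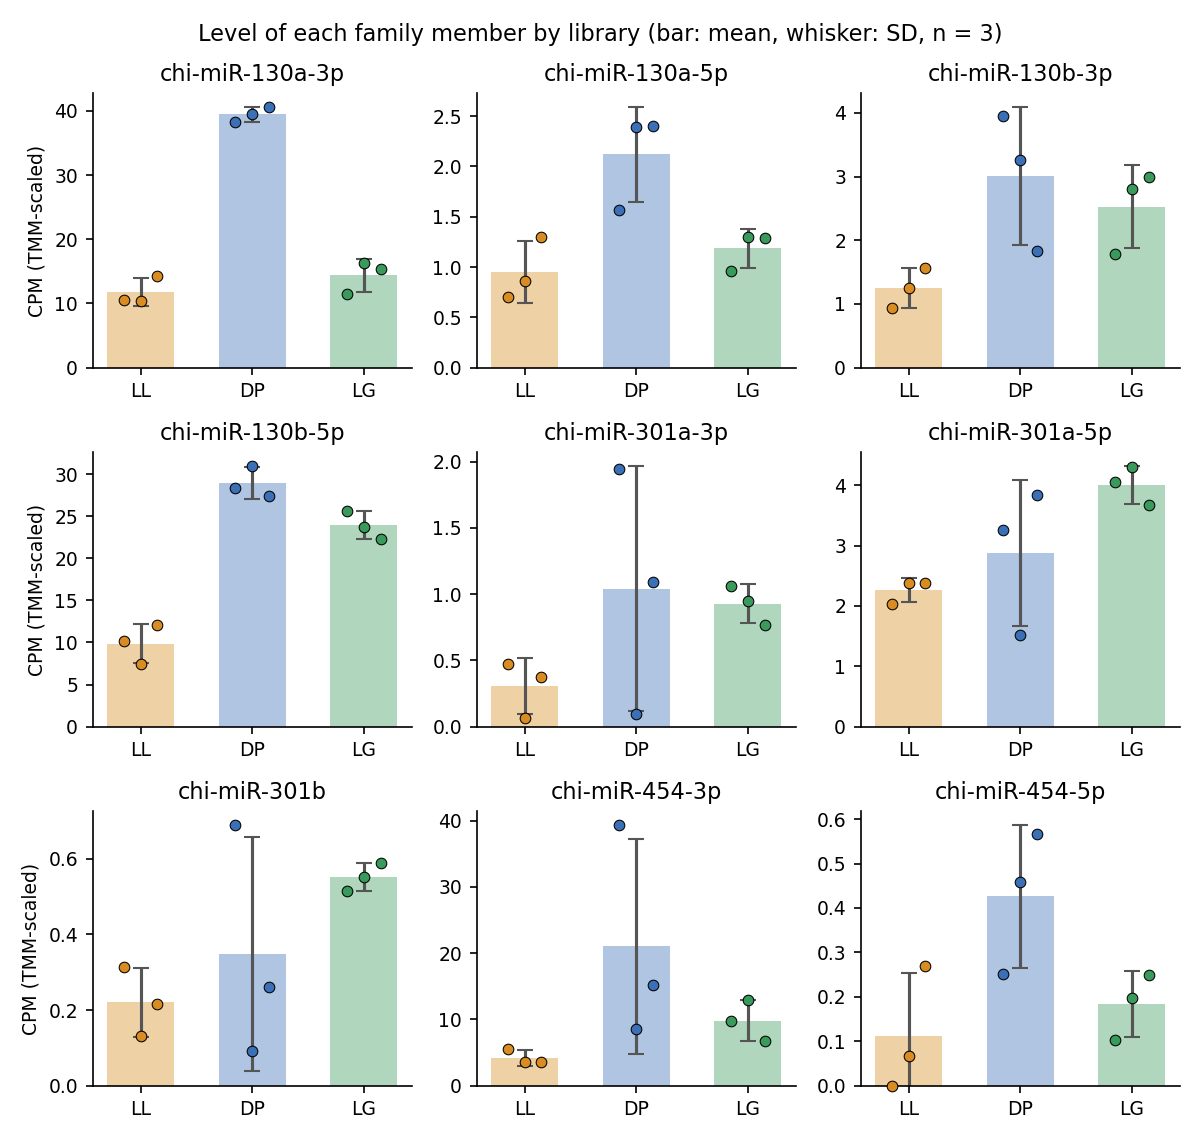
Level of each of the 9 family members (vertical axis, CPM scaled by TMM, linear from 0, a scale per panel) in LL, DP and LG. Points are the 3 goats of a stage, bars the mean and whiskers 1 SD, which the axis cuts at 0 for chi-miR-454-5p in LL. The DP points of chi-miR-130a-3p sit close together between 38.3 and 40.7 CPM, whereas those of chi-miR-454-3p spread from 8.50 to 39.4 CPM.

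Of the 9 members, 8 passed the filter of at least 0.5 CPM in at least 3 libraries and entered edgeR's quasi-likelihood test, together with the rest of 696 miRNAs. Chi-miR-454-5p did not pass. Chi-miR-301a-3p and chi-miR-301b passed through DP and LG libraries alone, since neither reached 0.5 CPM in any LL library. A DE-miRNA was one that changed by more than 1 on the log2 scale in either direction, with p adjusted after Benjamini and Hochberg below 0.05. The comparisons share libraries and are given side by side, each with its own values. For DP vs. LG, 31.5% of all tested miRNAs were DE-miRNAs (21.6% higher in DP, 9.91% lower), and 1 of the 8 members was called, chi-miR-130a-3p, higher in DP. For DP vs. LL, 26.7% of all were called (15.1% higher, 11.6% lower), and 5 of the 8 members were called, all higher in DP. These were chi-miR-130a-3p, chi-miR-130a-5p, chi-miR-130b-3p, chi-miR-130b-5p and chi-miR-454-3p. For LL vs. LG, 12.8% of all were called (8.91% higher in LL, 3.88% lower), and 1 of the 8 members was called, chi-miR-130b-5p, lower in LL.

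The filter itself favoured a low LL level for chi-miR-301a-3p and chi-miR-301b, so the comparisons are summarised over the other 6 tested members, which reached 0.5 CPM in all 9 libraries. Their median log2 fold change was 1.40 for DP vs. LL, beside 0.12 over all tested miRNAs, and −0.91 for LL vs. LG, beside 0.17 over all. For DP vs. LG it was 0.56, beside 0.18 over all, and 0.26 over all 8 tested members. The libraries of both stages did not overlap for 3 of 8 members in DP vs. LG, where 44.7% of all tested miRNAs did not overlap. DP and LL did not overlap for 5 of the 6 (41.2% of all), nor did LL and LG for 4 of the 6 (48.4% of all).

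The scaling set the level of these fold changes. Scaled by library size without TMM, the median log2 fold change of all miRNAs moved to −0.02 in DP vs. LG, to 0.49 when DP was set against LL and to −0.42 when LL was set against LG. With this scaling, 1, 5 and 3 members were called in the same order of comparisons, beside 201, 224 and 120 of all 696 miRNAs. In that order, the median of the 8 tested members was 0.05, 1.78 and −1.70, where TMM gave 0.26, 1.40 and −1.11. These medians include chi-miR-301a-3p and chi-miR-301b, whose low LL level the filter favoured. In LL vs. LG, 30 of the 120 were higher in LL, against 62 of 89 with TMM. With chi-miR-148a-3p, the most abundant miRNA of these libraries, left out before TMM scaling, the medians of all miRNAs were −0.11, 0.02 and −0.05, and 1, 3 and 1 members were called, beside 217, 188 and 94 of all.

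**Figure D2:**
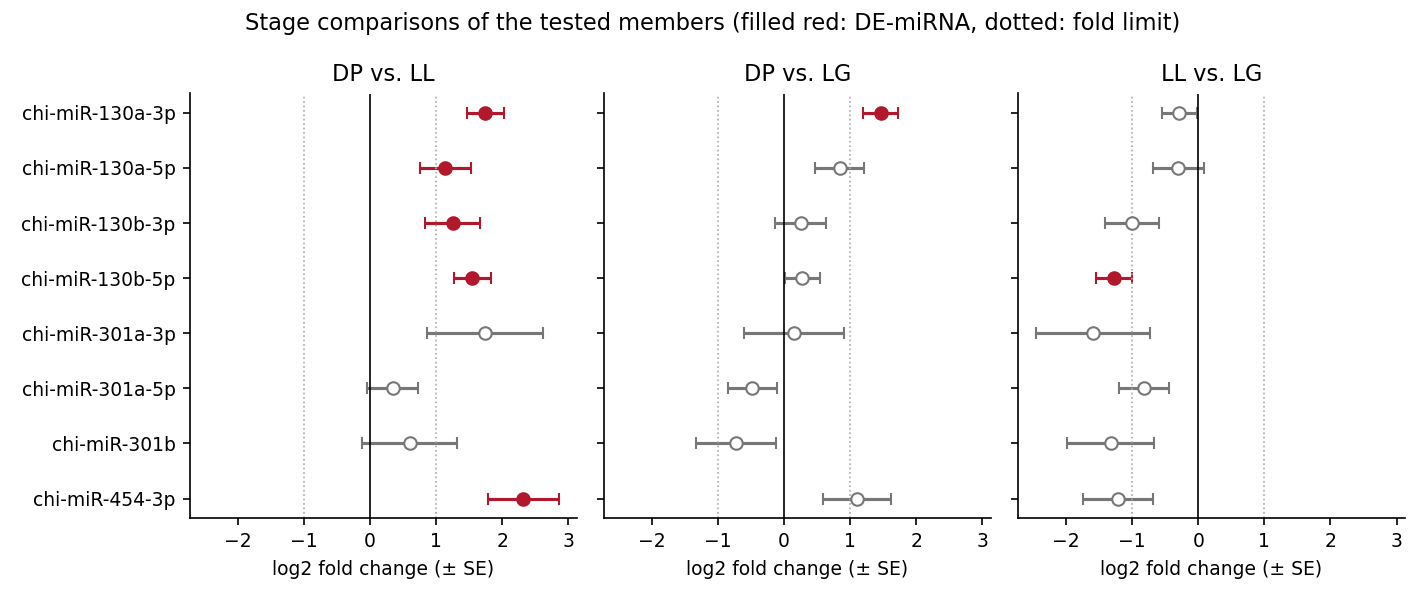
Log2 fold change (horizontal axis) of the 8 tested members between the stages, a panel per comparison, from edgeR with TMM scaling. Points are fitted values, lines 1 SE to each side, filled red points are DE-miRNAs and dotted lines mark a change of 1 in either direction. The 6 members that reached 0.5 CPM in all libraries lie between 0.34 and 2.32 in DP vs. LL. In LL vs. LG they lie between −1.27 and −0.29. For chi-miR-301a-3p and chi-miR-301b the filter favoured a low LL level.

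Chi-miR-130a-3p, the arm of the MIR130A hairpin that carries the family's seed, was the one member called in both comparisons of DP. It was counted 135, 157 and 266 times in the LL libraries, 610, 859 and 933 times in DP and 335, 413 and 676 times in LG. These counts gave 10.6, 10.4 and 14.4 CPM in LL, 38.3, 39.5 and 40.7 CPM in DP and 11.5, 16.3 and 15.3 CPM in LG. The 3 DP libraries lay close together (39.5 ± 1.2 CPM) and above all others, while LL (11.8 ± 2.24 CPM) and LG (14.4 ± 2.54 CPM) overlapped. The log2 fold change was 1.46 for DP vs. LG (SE 0.27, adjusted p = 0.00214), or 2.75-fold. It was 1.74 for DP vs. LL (SE 0.27, adjusted p = 0.00119), or 3.35-fold. LL vs. LG did not pass, at −0.29 on the log2 scale (SE 0.27, adjusted p = 0.525). Chi-miR-130a-3p remained called in both comparisons of DP under all 14 alternative settings, among them leaving out each library in turn.

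Chi-miR-130a-5p, the other arm of that hairpin, was counted 9 to 57 times per library. It lay at 0.706, 0.859 and 1.30 CPM in LL, at 1.57, 2.39 and 2.40 CPM in DP and at 0.960, 1.30 and 1.29 CPM in LG. Its order of stages was that of the 3p arm, with DP above all LL and LG libraries and an overlap between LL and LG. The call of DP vs. LL rested on a difference of 1.14 on the log2 scale (SE 0.38, adjusted p = 0.0456), and this call was lost in 10 of the 14 alternatives, among them 8 of the 9 that leave out 1 library, all but DP replicate 1, with adjusted p up to 0.132. For DP vs. LG it was 0.84 (SE 0.37, adjusted p = 0.0995).

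Chi-miR-130b-5p, from the neighbouring pair MIR130B and MIR301B, had LG near DP, whereas chi-miR-130a-3p had LG near LL. Its libraries held 130, 112 and 223 counts in LL, 451, 675 and 629 in DP and 748, 602 and 985 in LG. The levels were 10.2, 7.40 and 12.0 CPM in LL, 28.3, 31.0 and 27.4 CPM in DP and 25.7, 23.8 and 22.3 CPM in LG. All DP and LG libraries lay above all LL libraries, and DP lay above LG by a small margin. DP vs. LL gave a difference of 1.55 on the log2 scale (SE 0.27, adjusted p = 0.00237), which was called in all 14 alternatives. LL vs. LG gave −1.27 (SE 0.27, adjusted p = 0.0119), or 2.42-fold lower in LL. That call was lost when LL replicate 2 was left out (−1.24, adjusted p = 0.0507) and held in the other alternatives. DP vs. LG gave 0.27 (SE 0.27, adjusted p = 0.484), and the sign turned to −0.03 with chi-miR-148a-3p left out before scaling and to −0.10 without the filter.

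Chi-miR-130b-3p, which carries the family's seed, was the weaker arm of this hairpin. It lay at 0.942, 1.26 and 1.57 CPM in LL, at 3.95, 3.26 and 1.83 CPM in DP and at 1.78, 2.80 and 2.99 CPM in LG. As with its 5p arm, the LL libraries were the 3 lowest, but here DP overlapped LG. The log2 fold change for DP vs. LL was 1.25 (SE 0.41, adjusted p = 0.0425). This call was lost in 8 of the 14 alternatives, 5 of them leaving out LL replicate 1, 2 or 3 or DP replicate 1 or 2, with adjusted p up to 0.123. LL vs. LG was −1.0 (SE 0.41, adjusted p = 0.122), and it was called with DESeq2 (−1.18, adjusted p = 0.0261), with library size only (−1.59, adjusted p = 0.0347) and without DP replicate 3 (−1.19, adjusted p = 0.0419). DP vs. LG was 0.25 (SE 0.39, adjusted p = 0.676).

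Chi-miR-301b, the neighbour of chi-miR-130b, was counted 4, 2 and 4 times in LL, 11, 2 and 6 times in DP and 15, 14 and 26 times in LG. Its levels in LG were 0.514, 0.553 and 0.589 CPM, and all LL libraries lay below them at 0.132 to 0.314 CPM. The DP libraries spread widely, at 0.690, 0.0919 and 0.262 CPM. Here the 95% Poisson interval of DP replicate 1 (0.345 to 1.24 CPM) did not overlap that of DP replicate 2 (0.0111 to 0.332 CPM), which covers counting error only. No comparison of chi-miR-301b passed the test, which gave on the log2 scale −0.73 in DP vs. LG (SE 0.61, adjusted p = 0.402), 0.60 from LL to DP (SE 0.71, adjusted p = 0.549) and −1.33 in LL relative to LG (SE 0.66, adjusted p = 0.194). Without DP replicate 1, DP vs. LL turned to −0.39 and DP vs. LG to −1.79 (adjusted p = 0.032). In that fit chi-miR-301b passed the filter through the LG libraries alone, which favours a value below 0, so that this call is no support for a difference.

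Chi-miR-454-3p, from the SKA2 locus, had a high level in DP and the widest spread within DP among the 3 leading members. It was counted 71, 54 and 65 times in LL, 628, 185 and 347 times in DP and 284, 326 and 295 times in LG. Its levels were 5.57, 3.57 and 3.51 CPM in LL, 39.4, 8.50 and 15.1 CPM in DP and 9.74, 12.9 and 6.68 CPM in LG. The LL libraries were the 3 lowest, DP replicate 1 stood far above all others, and DP replicate 2 lay within the LG range. The coefficient of variation of the 3 DP libraries was 77.4% for chi-miR-454-3p, 3.03% for chi-miR-130a-3p and 6.47% for chi-miR-130b-5p with TMM scaling. By library size alone, the DP levels were 23.1 ± 20.1 CPM for chi-miR-454-3p, 41.0 ± 3.98 CPM for chi-miR-130a-3p and 30.0 ± 2.65 CPM for chi-miR-130b-5p, so that the close agreement of chi-miR-130a-3p rests in part on the scaling. DP vs. LL reached 2.32 on the log2 scale (SE 0.54, adjusted p = 0.0092), or 4.99-fold. It was called in all 14 alternatives and was 1.37 without DP replicate 1, where chi-miR-130a-3p had 1.65 and chi-miR-130b-5p 1.45. DP vs. LG did not pass (1.1, SE 0.52, adjusted p = 0.122), and the difference was 0.088 without DP replicate 1 (adjusted p = 0.865). LL vs. LG did not pass either (−1.21, SE 0.53, adjusted p = 0.14), and was called without DP replicate 1 (−1.28, adjusted p = 0.0333) and without DP replicate 2 (−1.39, adjusted p = 0.047).

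Chi-miR-454-5p was near the limit of detection, with 0, 1 and 5 counts in LL, 4, 10 and 13 in DP and 3, 5 and 11 in LG. It reached 0.5 CPM in 1 library, DP replicate 3.

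Chi-miR-301a-5p, the more abundant arm of MIR301A, was the one tested hairpin arm above 1 CPM whose mean was highest in LG. It lay at 2.04, 2.38 and 2.37 CPM in LL, at 3.26, 1.52 and 3.84 CPM in DP and at 4.05, 4.30 and 3.67 CPM in LG. All LG libraries lay above all LL libraries, and the DP libraries reached below LL and into LG. LL vs. LG lay at −0.82 on the log2 scale (SE 0.38, adjusted p = 0.158), which was called with library size only (−1.39, adjusted p = 0.0455) and without DP replicate 2 (−1.01, adjusted p = 0.0425). DP vs. LG was −0.48 (SE 0.37, adjusted p = 0.369) and DP vs. LL 0.34 (SE 0.38, adjusted p = 0.523).

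Chi-miR-301a-3p, the arm with the family's seed, was counted 6, 1 and 7 times in LL, 31, 2 and 25 times in DP and 31, 24 and 34 times in LG. The levels were 0.471, 0.0661 and 0.378 CPM in LL, 1.95, 0.0919 and 1.09 CPM in DP and 1.06, 0.948 and 0.770 CPM in LG. DP held both the highest and the second lowest library of all, whereas the LG libraries lay together above LL. The 95% Poisson intervals of DP replicate 1 (1.32 to 2.76 CPM) and DP replicate 2 (0.0111 to 0.332 CPM) did not overlap. DP vs. LL was 1.74 (SE 0.88, adjusted p = 0.155), which was called without DP replicate 2 (2.30, adjusted p = 0.0206) and was 0.85 without DP replicate 1 (adjusted p = 0.491). No LL library reached the filter's 0.5 CPM, which favours a low LL level. The call without DP replicate 2 is therefore no support for a difference. LL vs. LG was −1.59 (SE 0.86, adjusted p = 0.225). DP vs. LG was 0.15 (SE 0.76, adjusted p = 0.901), with a sign that turned between alternatives.

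DP replicates 1 and 2 were the highest and the lowest DP library for chi-miR-301a-3p, chi-miR-301b and chi-miR-454-3p. Other members had another order, with DP replicate 1 lowest for chi-miR-130a-5p and chi-miR-454-5p and DP replicate 3 highest for chi-miR-301a-5p. DP replicates 1 and 2 differed little for chi-miR-130a-3p (38.3 and 39.5 CPM) and chi-miR-130b-5p (28.3 and 31.0 CPM).

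The stage comparison can also be read within a hairpin, since a ratio of miRNAs of 1 library does not depend on how libraries are scaled. The 3p arm was the more abundant one of chi-miR-130a and chi-miR-454 in all 9 libraries, and the 5p arm that of chi-miR-130b and chi-miR-301a in all 9. The ratio of the arms of chi-miR-130a (3p to 5p, counts plus 0.5) was 14.3, 11.7 and 10.9 in LL, 23.9, 16.4 and 16.8 in DP and 11.8, 12.3 and 11.8 in LG. The DP libraries held the 3 highest ratios. Across the stages an exact permutation test over 1680 assignments, in which the smallest p is 0.00357, gave p = 0.0357 and an adjusted p of 0.214 over the 6 ratios tested. With each library left out the adjusted p ran from 0.0214, without LL replicate 1, which had the highest LL ratio, to 0.429, without DP replicate 1, and with a pseudocount of 2 it was 0.107.

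The other arm ratios had no detectable difference between stages. For chi-miR-130b the geometric mean of 5p to 3p was 7.70 in LL, 9.98 in DP and 9.63 in LG (exact permutation test, adjusted p = 0.746). For chi-miR-301a the 5p arm exceeded the 3p arm 8.38-fold in LL, 4.26-fold in DP and 4.29-fold in LG (exact permutation test, adjusted p = 0.746), with 13.4-fold in DP replicate 2 and 1.67-fold in DP replicate 1. For chi-miR-454 the 3p to 5p ratio was 39.6 in LL, 39.9 in DP and 49.9 in LG (exact permutation test, adjusted p = 0.957), and rests on 0 to 13 counts of the 5p arm. Over the whole family, 5p arms held 42.5% ± 1.73 of the level in LL, 35.3% ± 6.32 in DP and 51.2% ± 4.34 in LG. Chi-miR-301b, listed without an arm, was counted with the 3p arms here.

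The proportion of neighbouring hairpins had no detectable difference between stages either. Chi-miR-130b-3p exceeded chi-miR-301b 5.22-fold in LL, 10.1-fold in DP and 4.37-fold in LG (geometric means, exact permutation test, adjusted p = 0.621), and the DP libraries ranged from 5.52 to 28.6, the latter with 2 counts of chi-miR-301b. Chi-miR-454-3p exceeded chi-miR-301a-3p 15.2-fold in LL, 27.2-fold in DP and 10.1-fold in LG (adjusted p = 0.621 in the same exact test), with 74.2 in DP replicate 2 on 2 counts of chi-miR-301a-3p. These proportions also hold differences in how well each miRNA is captured in a library, which were not tested.

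Between the leading members, chi-miR-130a-3p was 1.04, 1.40 and 1.19 times as abundant as chi-miR-130b-5p in LL and 1.35, 1.27 and 1.48 times in DP. In LG it was 0.448, 0.686 and 0.686 times as abundant. Chi-miR-130a-3p was thus above chi-miR-130b-5p in all LL and DP libraries and below it in all LG libraries. In DP replicate 1, chi-miR-454-3p (628 counts) lay above both, ahead of chi-miR-130a-3p (610 counts). This comparison was chosen after the values were seen and was not tested.

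**Figure D3:**
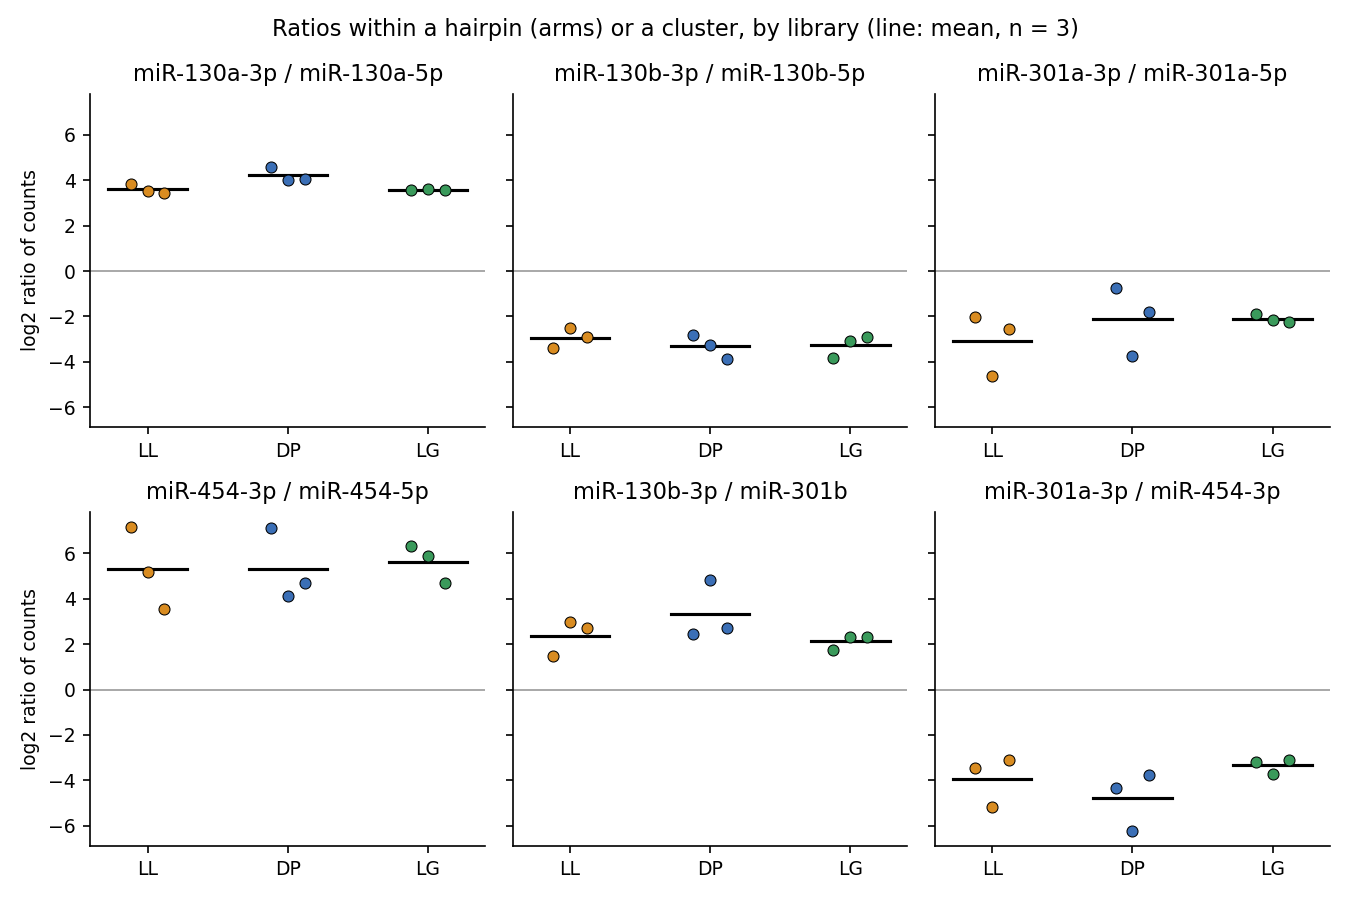
Ratios within single libraries for the arms of a hairpin and for neighbouring hairpins (vertical axis, log2 of the ratio of counts plus 0.5, first miRNA over second as each panel names them, with equal counts at 0) in LL, DP and LG. Points are the 3 goats of a stage and lines the mean of the log2 ratios. The 3 DP points of chi-miR-130a (3p to 5p, ratios of 16.4 to 23.9) lie above the 6 others (ratios of 10.9 to 14.3), while the other 5 ratios overlap between DP and at least 1 other stage.

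The miRNAs whose levels moved most like each leading member over the 9 libraries were sought among 360 known ones, by Pearson r of log2 CPM. The libraries fall into 3 stages and share depth and scaling, so that these r are a description and no p is given. For chi-miR-130a-3p they were chi-miR-214-3p (r = 0.979), chi-miR-199b-5p (r = 0.970) and chi-miR-199c-5p (r = 0.970), where the latter had equal counts to chi-miR-199b-5p in all libraries. MiR-214 shares a transcript with a miR-199a hairpin, and both families are known from mesenchymal cells such as fibroblasts. Chi-miR-214-3p was higher in DP by 2.75 (vs. LG) and 2.76 (vs. LL) on the log2 scale and differed by 0.00 between LL and LG, and chi-miR-199b-5p had 1.63, 1.62 and 0.02. The high DP level that they share with chi-miR-130a-3p was fixed by the choice on r.

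For chi-miR-130b-5p the most alike were chi-miR-106b-5p (r = 0.930), of a cluster known from dividing cells, chi-miR-412-5p (r = 0.873) and chi-miR-224-3p (r = 0.859). Chi-miR-224-3p had 3, 3 and 5 counts in LL and 6 in DP replicate 1, and passed the filter through the other libraries, which favours a low LL level. Chi-miR-106b-5p differed on the log2 scale by 0.12 in DP vs. LG, by 0.97 from LL to DP and by −0.85 from LG to LL. For chi-miR-454-3p they were chi-miR-34a (r = 0.895), a target of p53, chi-miR-204-5p (r = 0.890) and chi-miR-412-5p (r = 0.885). Chi-miR-34a had 0.13, 1.44 and −1.31 in the same comparisons. DP replicate 1 was the highest DP library of chi-miR-454-3p and of all 3, at 2.16 above the 9-library mean for chi-miR-454-3p, 1.43 for chi-miR-34a, 1.92 for chi-miR-204-5p and 2.10 for chi-miR-412-5p on the log2 scale. Without this library, an alternative chosen after seeing the data, r over the 8 others was 0.792 for chi-miR-34a, 0.731 for chi-miR-204-5p and 0.823 for chi-miR-412-5p. Chi-miR-204-5p, by contrast, had 1.30, 1.77 and −0.47.

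**Figure D4:**
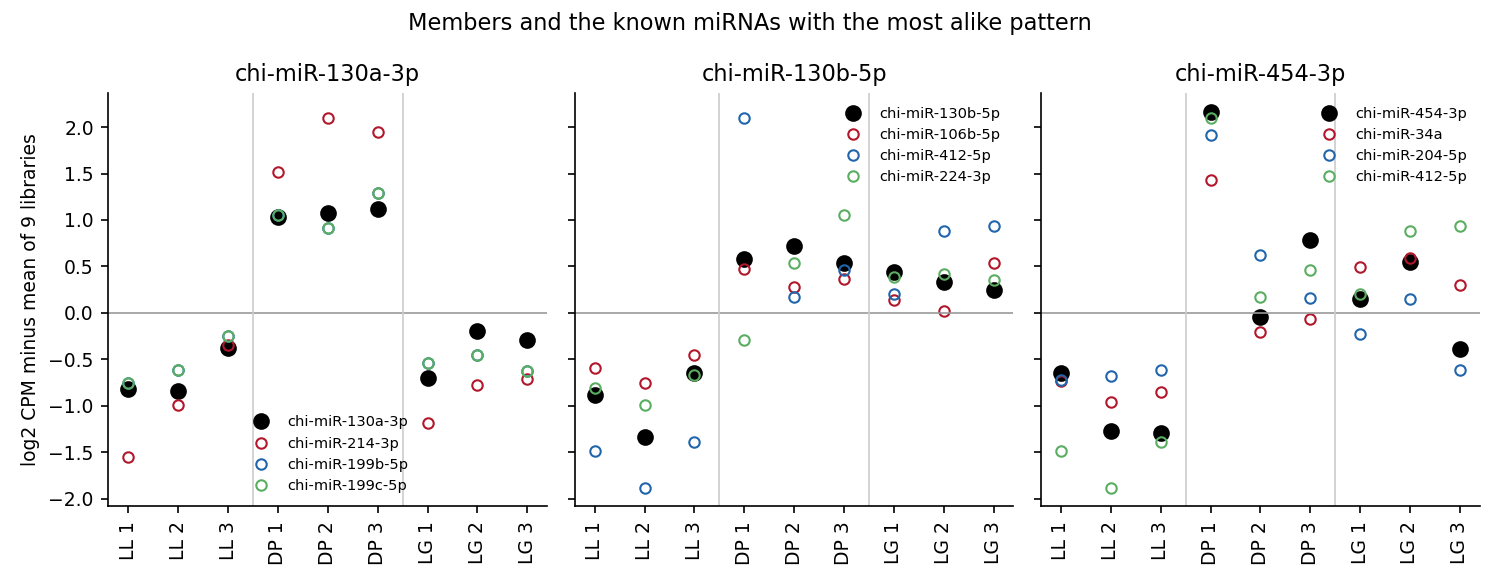
Log2 CPM relative to the mean of the 9 libraries (vertical axis) for each of the 3 leading members and the 3 known miRNAs with the highest Pearson r to it. The horizontal axis lists the libraries by stage, filled points are the member and open points the other miRNAs. The points of chi-miR-199b-5p and chi-miR-199c-5p coincide, and chi-miR-130a-3p lies 1.03 to 1.12 above its mean in the 3 DP libraries.

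Marker miRNAs of cell types that the gland can hold were counted in the same fits, and their calls are read beside the shares of all miRNAs given above. The summed level of 5 miRNAs known from epithelium (of the miR-200 family) was 34893 to 42110 CPM in LL, 13064 to 20811 CPM in DP and 34218 to 37558 CPM in LG. Of these, 5 of 5 were DE-miRNAs lower in DP vs. LL and 3 of 5 in DP vs. LG. The 8 miRNAs known from stroma and smooth muscle (of miR-143, miR-145, miR-199a and miR-214) summed to 79066 to 126935 CPM in LL, 48542 to 155096 CPM in DP and 58005 to 66273 CPM in LG. Of these, 4 of 8 were higher in DP vs. LL, 5 of 8 in DP vs. LG and 1 of 8 in LL relative to LG, where 15.1%, 21.6% and 8.91% of all miRNAs were. The DP range of this sum contained the LL range, and the mean sum fell from LL (96777 CPM) to DP (90871 CPM). The list thus went both ways between these stages. Lower in DP on average were chi-miR-143-3p, its most abundant miRNA (82771 to 61292 CPM), and chi-miR-145-5p (5447 to 3333 CPM). All others of this list had a higher mean in DP, among them chi-miR-199a-3p (5274 to 19786 CPM).

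Among the other lists, the 2 miRNAs of endothelium summed to 15852 to 22980 CPM in LL, 19028 to 31975 CPM in DP and 14716 to 16363 CPM in LG, with 1 higher in DP vs. LG. The 5 of skeletal muscle summed to 673 to 881 CPM in LL, 907 to 3404 CPM in DP and 384 to 496 CPM in LG, with 2 higher in DP vs. LG and 1 in DP vs. LL. The 4 of blood summed to 364 to 551 CPM in LL, 122 to 1284 CPM in DP and 87.1 to 168 CPM in LG, with 1 of the 3 tested higher in DP vs. LG. Nearly all of this sum was chi-miR-451-5p, with a mean of 475 CPM in LL and 656 CPM in DP. Chi-miR-144-3p and -5p had lower means in DP (0.910 and 3.48 CPM) than in LL (1.65 and 4.33 CPM). The 5 of immune cells summed to 600 to 814 CPM in LL, 778 to 1968 CPM in DP and 246 to 363 CPM in LG. Of the 4 tested, 4 were higher in DP than in LG, 1 in DP than in LL and 3 in LL than in LG. From LL to DP these went both ways, with a median log2 fold change of −0.09. Mean levels fell for chi-miR-223-3p (59.7 to 28.6 CPM) and chi-miR-223-5p (40.2 to 20.1 CPM). They rose for chi-miR-150 (117 to 524 CPM) and chi-miR-155-5p (465 to 818 CPM). Chi-miR-155-3p, of the immune list, was at 0 in LG, and no other miRNA summed here was at 0 throughout a stage. Chi-miR-205 (epithelium), chi-miR-486 (blood) and chi-miR-142 (immune cells) had been listed as well but were not found among the miRNAs counted. The part of these cells in the differences of the miR-130 family was not tested.

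Other miRNAs known to act on PPARG were compared as a list of 3, chi-miR-27a-3p, chi-miR-27b-3p and chi-miR-128-3p. One of the 3, chi-miR-27a-3p, was higher in DP vs. LG (log2 fold change 1.77, SE 0.41, adjusted p = 0.0072), and the others were not called there (0.76 for chi-miR-27b-3p, adjusted p = 0.0918, and 0.71 for chi-miR-128-3p, adjusted p = 0.109). In DP vs. LL, chi-miR-27a-3p lay at 1.11 (SE 0.40, adjusted p = 0.0565), short of the threshold. This miRNA was at 2035 ± 394 CPM in LL, 4393 ± 2533 CPM in DP and 1292 ± 182 CPM in LG, far above the levels of the miR-130 family. The median log2 fold change of the list was 0.76 in DP relative to either other stage and 0.00 between LL and LG.

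The miR-148 family, whose seed overlaps that of the miR-130 family, was listed with chi-miR-148a-3p and chi-miR-148b-3p. Their levels ran the other way, with log2 fold changes for DP vs. LL of −2.87 for chi-miR-148a-3p and −1.37 for chi-miR-148b-3p, both called. For DP vs. LG they were −1.93 for chi-miR-148a-3p, which was called, and −0.90 for chi-miR-148b-3p, which was not.

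**Figure D5:**
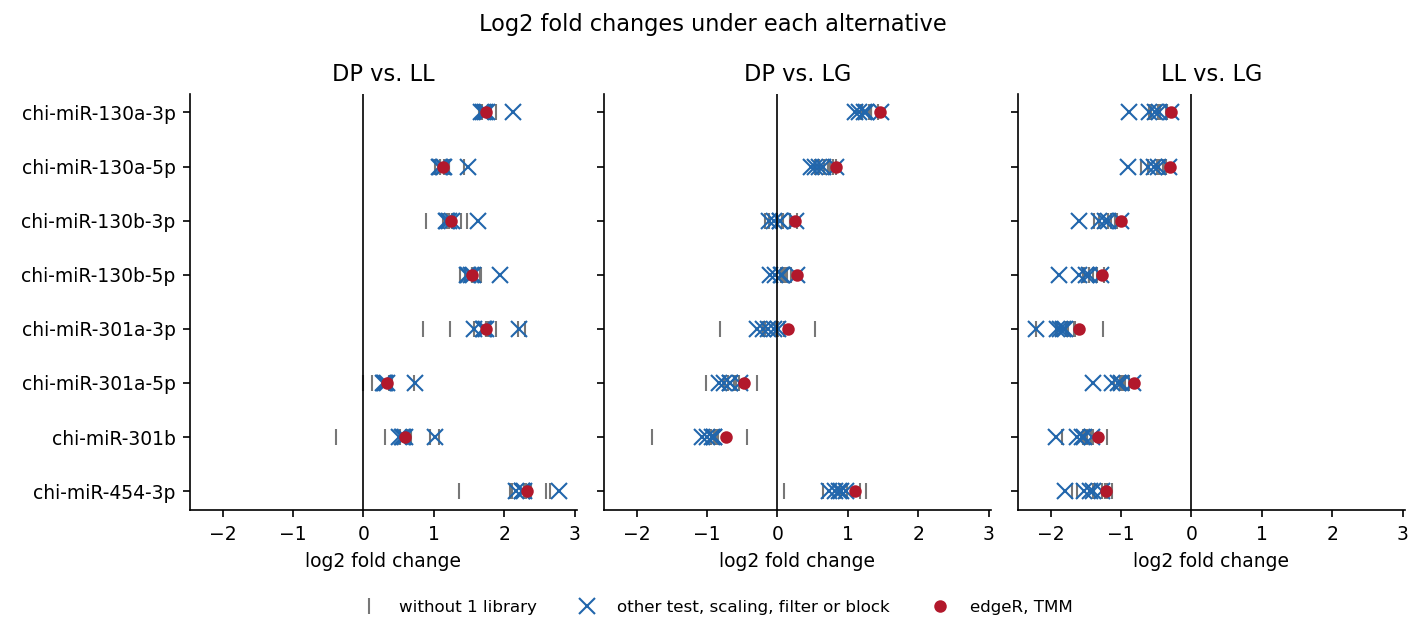
Log2 fold change of each tested member (horizontal axis), a panel per comparison of stages, as reported and under the 14 alternative settings. Red points are the reported values, ticks are fits without 1 library and crosses the other settings. The ranges of chi-miR-301a-3p, chi-miR-301b and chi-miR-454-3p in both DP comparisons are wide, with the fits without DP replicate 1 among their ends. Those of chi-miR-130a-3p stay between 1.65 and 2.12 in DP vs. LL and between 1.1 and 1.47 in DP vs. LG.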

How the data were processed

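Mammary small RNA libraries of 9 goats were analysed, 3 per stage, grouped by the sample labels. After trimming, the authors mapped reads to goat assembly ARS1.2 with miRDeep2, and they deposited the number of reads per mature miRNA as counts without normalization. The submitters' processing notes also name FastQC 0.11.9, cutadapt 4.2 and Bowtie 1.1.1. The column deposited for LL replicate 3 has a few values that are not whole. Those deposited values were therefore treated like the expected counts of the authors' quantifier, and rounded.

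After a filter (0.5 CPM or more in 3 or more libraries), 696 miRNAs were tested with edgeR 4.0.16 in R 4.3.3 (quasi-likelihood test, TMM scaling, 1 fit of all 9 libraries, stage as the only term, Benjamini-Hochberg adjustment). Calls needed an adjusted p below 0.05 and a change of more than 1 on the log2 scale. The standard error is the absolute log2 fold change divided by the square root of F. The fits were tested on simulated data. Ratios used counts plus 0.5 and an exact permutation test of the spread of the stage means (one-sided for a larger spread, with no direction between stages). Likeness was sought for members with a mean of at least 10 CPM, taking the 3 known miRNAs with the highest Pearson r of log2 CPM (prior count 2). The alternatives were DESeq2 1.42.0, scaling by library size, TMM without chi-miR-148a-3p, no filter, a replicate block, and fits that each lack 1 library. For ratios, a pseudocount of 2 was the alternative, beside leaving out each library. All members by the name rule, the likeness rule's miRNAs and the listed miRNAs are named. The members and lists were chosen with earlier results of these data known. Intervals and floors cover counting error only, since PCR copies of a molecule could not be told from separate molecules. Coordinates are from the RefSeq annotation of ARS1.2.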

Additional observations from a re-analysis of the deposited data

How the results depend on the processing

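Of 336 comparisons of a member's fold change with an alternative, 289 kept their direction and side of the thresholds, 19 lost a call, 9 gained one and 19 changed sign without a call on either side. The number of members called in DP vs. LL was 5, and 3 with chi-miR-148a-3p left out, 3 without the filter and 3 to 4 with each library left out. The 4 without DP replicate 2 include chi-miR-301a-3p, which reached 0.5 CPM in no LL library, so that the filter favoured its call. In DP vs. LG the number called was 1, and 1 to 2 with each library left out, where the added one was chi-miR-301b without DP replicate 1, which then passed the filter through LG alone. In LL vs. LG it was 1, and 2 with DESeq2, 3 with library size only and 0 to 3 with each library left out. Over all miRNAs, leaving out each library gave 152 to 248 DE-miRNAs in DP vs. LG, 124 to 192 in DP vs. LL and 33 to 125 in LL vs. LG, with 33 and 36 when LL replicate 1 or 2 was missing and 54 and 41 when LG replicate 1 or 3 was. With library size only, 116 of 201 calls of DP vs. LG were higher in DP (150 of 219 with TMM), 165 of 224 in DP vs. LL (105 of 186) and 30 of 120 higher in LL in LL vs. LG (62 of 89).

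Signs turned in DP vs. LG for chi-miR-301a-3p (−0.051 with DESeq2, −0.13 with chi-miR-148a-3p left out, −0.20 without the filter and −0.82 to 0.53 with each library left out), chi-miR-130b-3p (−0.054 with chi-miR-148a-3p left out, −0.12 without the filter and −0.17 to 0.27 with each library left out) and chi-miR-130b-5p (−0.029 and −0.10). In DP vs. LL, leaving out each library gave −0.39 to 1.07 for chi-miR-301b and −0.0058 to 0.72 for chi-miR-301a-5p. With the replicate block, chi-miR-301a-3p was at −0.29 in DP vs. LG, and 1, 4 and 1 members were called in the comparisons DP to LG, DP to LL and LL to LG, beside 222, 170 and 88 of all miRNAs. Each library came from its own goat, so that the replicate numbers pair no goats between stages. Deviations of the 9 same-numbered pairs of libraries had r from −0.101 to 0.214, with 3 above 0.1. Pairs with different numbers had r from −0.230 to 0.149. The highest r was thus that of a same-numbered pair, and whether same-numbered libraries share anything else was not tested.

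With each library left out, the adjusted p of the exact permutation tests ran from 0.0214 to 0.429 for chi-miR-130a arms, 0.300 to 0.964 for chi-miR-301a arms, 0.557 to 0.996 for chi-miR-454 arms and 0.268 to 0.806 for chi-miR-301a-3p with chi-miR-454-3p, with the stage of the highest ratio changing in the last 3. The causes were not tested. Depth limits chi-miR-301b, chi-miR-301a-3p and chi-miR-454-5p most, which had libraries with 0 to 2 counts.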
